A study of Mus musculus with 2 samples.

Results

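The genes described here are the replication-dependent linker histone H1 genes Hist1h1a, Hist1h1b, Hist1h1c, Hist1h1d and Hist1h1e. They were taken by symbol, and are 5 of the 32285 genes in the count matrices. They held 38352 of the 169199984 UMIs in the cells kept, a UMI being a tag that marks 1 captured RNA molecule. Levels are given as CPM, the UMIs of a gene summed over a population of cells and scaled to a total of 1000000 UMIs. The genes were chosen from their levels by cell type and in cycling cells, in both genotypes, so those levels are given as a description and carry no test. Cells with at least 2 Mki67 and at least 2 Top2a UMIs, both genes of dividing cells, are called cycling here.

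The study profiled freshly isolated liver non-parenchymal cells, the immune, endothelial, mesenchymal and bile duct cells that remain when hepatocytes are removed, by droplet single-cell RNA sequencing. All mice received intraperitoneal carbon tetrachloride (CCl4), a toxin that scars the liver, for 8 weeks. The series holds 1 library from Mfap2+/+ (wild-type) mice and 1 from Mfap2-/- (knockout) mice, and no library from mice without CCl4. The protein MFAP2 is part of the microfibrils of the extracellular matrix. The labels give neither the number, age or sex of the mice behind a library nor how the allele was made, so genotype, animal and library preparation cannot be told apart.

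Linker histone H1 binds the nucleosome where DNA enters and leaves it and helps to fold the nucleosome fibre. Most H1 in dividing cells comes from several clustered, intronless genes that are transcribed mainly in S phase, when new chromatin is built. Their messenger RNAs usually end just past a conserved stem-loop in place of a poly(A) tail, although some also give polyadenylated RNA in cells that have left the cycle. H1f0, outside the cluster, encodes the H1 that accumulates in differentiated cells. RefSeq names the 5 genes H1f1 (Hist1h1a), H1f5 (Hist1h1b), H1f2 (Hist1h1c), H1f3 (Hist1h1d) and H1f4 (Hist1h1e).

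All 5 genes lie on chromosome 13 and have a single exon (GENCODE M21 models on GRCm38). Hist1h1a (ENSMUSG00000049539) spans 23763666 to 23764406 on the forward strand. Hist1h1c (ENSMUSG00000036181) spans 23738808 to 23740367 and Hist1h1d (ENSMUSG00000052565) spans 23553262 to 23560686, both on the forward strand. Hist1h1e (ENSMUSG00000051627) spans 23620629 to 23622558 on the reverse strand. Hist1h1b (ENSMUSG00000058773), at 21779883 to 21780625 on the reverse strand, is separated from Hist1h1d by 1773 kb, while the distances along the other 4, in the order Hist1h1d, Hist1h1e, Hist1h1c and Hist1h1a, were 59.9, 116 and 23.3 kb.

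The stem-loop was searched for in the stretch after each stop codon, as the pattern named the histone 3′ stem-loop. It was found in Hist1h1c, Hist1h1d and Hist1h1e, starting 25, 32 and 41 bases after the stop codon. The modelled exon ran on for 840, 4884 and 1153 bases beyond it. The Hist1h1a model ended 48 bases and the Hist1h1b model 0 bases after the stop codon, and no match lay inside them. The 3 elements are shown because they separate the 2 kinds of 3′ end these genes can have, and capitals mark the stem-loop. They lie at chr13:23739507-23739532 (+), chr13:23555782-23555807 (+) and chr13:23621777-23621802 (-) on GRCm38.

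Hist1h1c: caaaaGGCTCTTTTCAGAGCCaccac
Hist1h1d: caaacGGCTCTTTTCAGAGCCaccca
Hist1h1e: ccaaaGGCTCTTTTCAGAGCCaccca

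The letters of the stem-loop were the same in all 3 genes.

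The promoters are shown because Hist1h1a and Hist1h1b, on the one hand, and Hist1h1c, on the other, had unlike patterns over the cells. The 150 bases before the RefSeq start (GRCm38.p6) were searched on both strands for 3 motifs, and capitals mark the matches. The core of the box typical of H1 promoters was searched as AAACACA. The pattern that binds the factor NF-Y was searched as ACCAATCA. The pattern that binds the general factor TBP was searched as TATANA. They come from chr13:23763518-23763667 (+), chr13:21780626-21780775 (-), chr13:23738657-23738806 (+) and chr13:23622559-23622708 (-).

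Hist1h1a: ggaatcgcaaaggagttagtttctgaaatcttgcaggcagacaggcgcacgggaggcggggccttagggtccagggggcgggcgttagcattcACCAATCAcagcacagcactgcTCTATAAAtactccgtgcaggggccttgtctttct
Hist1h1b: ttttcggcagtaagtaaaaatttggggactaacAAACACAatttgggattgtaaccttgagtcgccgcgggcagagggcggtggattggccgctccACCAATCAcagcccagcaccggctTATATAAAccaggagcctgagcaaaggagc
Hist1h1c: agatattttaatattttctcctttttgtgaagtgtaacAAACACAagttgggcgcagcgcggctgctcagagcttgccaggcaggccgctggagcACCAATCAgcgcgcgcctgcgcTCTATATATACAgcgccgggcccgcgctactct
Hist1h1e: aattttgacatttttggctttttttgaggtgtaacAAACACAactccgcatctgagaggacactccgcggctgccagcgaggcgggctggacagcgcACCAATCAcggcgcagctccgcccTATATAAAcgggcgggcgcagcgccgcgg

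AAACACA occurred in 4 of the 5 genes, at 117 bases before the start in Hist1h1b, 112 in Hist1h1c, 122 in Hist1h1d and 115 in Hist1h1e. The same letters occurred in 3.53% of 32851 RefSeq promoters over the same 150 bases. Hist1h1a had no match to these letters in this window. ACCAATCA stood 57, 54, 55, 52 and 53 bases before the start of Hist1h1a to Hist1h1e, and in 1.53% of all promoters. TATANA was present in all 5 genes and in 13.3% of promoters, where matches on the 2 strands often overlap. A match is a description of the letters and not evidence of binding. The members with the box included both the one most tied to cycling cells, Hist1h1b, and the one least tied to them, Hist1h1c.

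The library labels were checked with Mfap2, which had 211 UMIs in the wild-type cells kept and 2 in the knockout cells kept. There were 11783 wild-type barcodes with 82499307 UMIs (median 4685) and 12872 knockout barcodes with 118226367 UMIs (median 6511). After filters on genes, mitochondrial UMIs and doublets, 10336 and 11428 cells were kept, of which 272 (2.63%) and 433 (3.79%) were cycling. Doublet removal had taken out 40 and 85 cells of the cycling gate. The libraries shared 40 barcodes, and 0 of them were cycling cells in both. All kept cells were matched to types by marker genes, which left 15.7% of wild-type and 13.1% of knockout cells with no type and 2.12% and 1.91% with a tie. The levels by type given below leave out the cycling cells. Of the types, which were immune, endothelial, mesenchymal and bile duct cells as labelled, 15 had at least 50 cells in both libraries, and only 8 and 32 cells passed the hepatocyte gate. All 95% intervals below, given in parentheses, cover counting error only.

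Hist1h1b was the H1 gene most concentrated in cycling cells. It stood at 7.06 CPM in the other wild-type cells (453 UMIs) and 247 in cycling wild-type cells (1524 UMIs), 35.1-fold higher (31.5 to 39.0). In the knockout library the levels were 16.7 and 523 CPM, 31.3-fold apart (29.6 to 33.2). When the comparison cells were restricted to those with no Mki67 and no Top2a UMI, the folds were 52.9 and 37.5. Hist1h1b was therefore low, but above the limit that 3 counts set (0.0467 and 0.0342 CPM), outside the cycling gate in both libraries.

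Hist1h1a followed the same order at much lower levels, from 1.25 to 19.8 CPM in the wild type (15.9-fold) and from 2.25 to 44.8 in the knockout (19.9-fold). Hist1h1d stood at 6.40 and 52.3 in the wild type (8.16-fold) and at 9.75 and 70.7 in the knockout (7.26-fold). Hist1h1e had 26.1 CPM outside the gate and 130.0 inside it in the wild type (4.98-fold). In the knockout it had 62.5 and 299 (4.78-fold).

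Hist1h1c differed least between the 2 kinds of cell. It stood at 90.0 CPM in other cells and 142 in cycling cells of the wild type (1.58-fold, 1.47 to 1.69), and at 72.2 and 131 in the knockout (1.81-fold, 1.71 to 1.92). So 4 of the 5 genes were past 2-fold in each library, where 13.2% of 17110 genes tested in the wild type and 13.1% of 18225 in the knockout were. This is the contrast by which the genes were chosen, so nothing is read from that count. The median UMI total per cell was 17207 in cycling and 4552.5 in other wild-type cells, and 20562 and 6090 in the knockout. The part of these depths in the ratios was not tested beyond thinning, and with cells thinned to 1000 UMIs the sum of the 5 genes was still higher in cycling cells of both libraries.

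**Figure D1:**
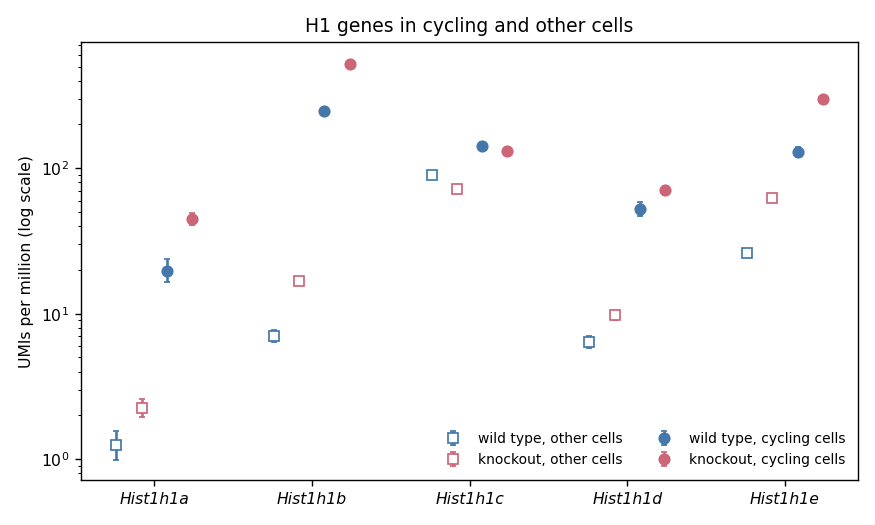
Level of each H1 gene in CPM (log axis) in cells outside the cycling gate (open squares) and in cycling cells (filled circles), for wild type (blue) and knockout (red), with 95% counting intervals. Hist1h1b spans the widest range, from 7.06 to 247 in the wild type, and Hist1h1c the narrowest, from 90.0 to 142.

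Compared with each other per kilobase of RefSeq transcript, the genes changed order between the 2 kinds of cell. A UMI marks 1 captured molecule at any length, so the scaling by length is a description only. The RefSeq lengths (725 to 794 bases) are also shorter than the GENCODE models of Hist1h1c, Hist1h1d and Hist1h1e. Without the scaling, the levels above stood in the same order in each population. In cycling wild-type cells Hist1h1b had the highest level at 312 CPM per kb, followed by Hist1h1c (196), Hist1h1e (166), Hist1h1d (67.4) and Hist1h1a (26.6). Outside the gate Hist1h1c led with 124, followed by Hist1h1e (33.4), Hist1h1b (8.89), Hist1h1d (8.25) and Hist1h1a (1.67). The intervals of Hist1h1b (8.09 to 9.75) and Hist1h1d (7.47 to 9.09) overlapped there, and those of the other neighbours in either order did not. In cycling knockout cells Hist1h1e, at 383 per kb, stood above Hist1h1c, at 180.1. The remaining order was that of the wild type.

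As shares of all H1 UMIs, Hist1h1c made up 68.8% in other wild-type cells and 24.0% in cycling wild-type cells, and Hist1h1b 5.39% and 41.8%. In the knockout library Hist1h1c made up 44.2% and 12.2%, Hist1h1b 10.2% and 49.0%, and Hist1h1e 38.3% and 28.0%. In both libraries the captured H1 RNA was therefore led by Hist1h1c outside the cycling gate and by Hist1h1b inside it. This chemistry primes on poly(A) and captures RNA that ends at the stem-loop poorly. The shares need not be those of all H1 RNA in the cells. The GENCODE models also differ in the bases that follow the stop codon, 48 in Hist1h1a and 0 in Hist1h1b. Hist1h1c, Hist1h1d and Hist1h1e have 880, 4931 and 1209. The part of these lengths in the shares and the order of the genes was not tested.

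The genotypes were compared next. The question was how H1 levels in cycling cells differed between the Mfap2 knockout and the wild-type library. Hist1h1b, Hist1h1e and Hist1h1a were each more than 2-fold higher in the knockout library. Hist1h1e stood at 130.0 (801 UMIs) and 299 (3358 UMIs) CPM, a log2 ratio of 1.20 (1.09 to 1.32). Hist1h1b stood at 247 and 523, a log2 ratio of 1.08 (0.998 to 1.16). Hist1h1a had 122 UMIs at 19.8 CPM in the wild type and 503 UMIs at 44.8 CPM in the knockout, a log2 ratio of 1.17 (0.89 to 1.48).

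Hist1h1d was higher by less, from 52.3 to 70.7, a log2 ratio of 0.43 (0.25 to 0.63). Hist1h1c stood at 142 and 131, a log2 ratio of -0.12 (-0.24 to 0.00). Its sign was positive, at 0.20, when cells were thinned first and the cycling gate was then set at 1 UMI of each gene. The sum of the 5 genes was 592 in wild-type and 1068 in knockout cells, a log2 ratio of 0.85 (0.80 to 0.91). With 1 library per genotype there is no test and no replicate check of these differences.

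In cycling cells 7.39% of the 14393 genes with at least 20 UMIs were past 2-fold higher in the knockout and 1.99% past 2-fold lower, against 3 and 0 of the 5 H1 genes. The median log2 ratio was 0.11 over all genes and 1.08 over the H1 genes. The 5 genes were chosen from levels in these same cells of both libraries. These shares and medians, and those below for other cells and types, are therefore a description and no test. Scaling by the median of ratios over genes shifted log2 ratios in cycling cells by 0.12, after which Hist1h1b stood at 0.96, Hist1h1e at 1.08 and Hist1h1a at 1.04. Relative to that shift Hist1h1b was no longer past 2-fold. Over the 11 alternative settings the ratio lay between 0.96 and 1.34 for Hist1h1b, 1.08 and 1.53 for Hist1h1e, 1.01 and 1.36 for Hist1h1a and 0.29 and 0.52 for Hist1h1d.

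The cells that make up the cycling gate differed between the libraries. Natural killer cells and type 1 innate lymphoid cells (NK or ILC1) were 20.6% of cycling wild-type and 9.70% of cycling knockout cells. Neutrophil-gated cells were 13.2% and 5.77%, dendritic cells 6.62% and 14.8%, and endothelial cells 2.21% and 7.16%. Weighting the knockout cells to the wild-type mix gave log2 ratios of 1.05 for Hist1h1b, 1.23 for Hist1h1e and 0.84 for the sum, a setting chosen after the data were seen.

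Within the 4 lineages that had at least 20 cycling cells in both libraries, Hist1h1a, Hist1h1b, Hist1h1d and Hist1h1e were each higher in the knockout in 4 of 4. The interval included 0 for Hist1h1d in T cells (0.23, -0.28 to 0.80) and mononuclear phagocytes (0.30, -0.05 to 0.68), and for Hist1h1a in NK or ILC1 cells (0.81, -0.05 to 1.75). For Hist1h1b the log2 ratio ranged from 0.90 in T cells (273 and 512 CPM) to 1.11 in NK or ILC1 cells (323 and 698). For Hist1h1e it ranged from 0.998 in mononuclear phagocytes, the group of Kupffer cells, macrophages and monocytes (175 and 349.9 CPM), to 1.59 in NK or ILC1 cells (144 and 438). Hist1h1c had no common direction: its log2 ratio was -0.49 (-0.69 to -0.28) in mononuclear phagocytes and 0.62 (0.21 to 1.04) in NK or ILC1 cells, with intervals that included 0 in neutrophils and T cells.

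The level in cycling cells also depended on which cells passed the gate. Wild-type cycling cells with the cholangiocyte markers (9 cells) had 111 CPM of the 5 genes and those with tied markers (14 cells) had 276. The 4 larger lineages lay between 658 in NK or ILC1 cells and 854 in neutrophils. In the knockout the same 4 lineages lay between 1152 in T cells and 1515 in neutrophils. Every one of these 4 lineages was higher in the knockout library than the highest was in the wild type.

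Outside the cycling gate the same direction held for 4 of the 5 genes. Hist1h1e was 26.1 CPM in wild-type and 62.5 in knockout cells, a log2 ratio of 1.26 (1.18 to 1.34). Hist1h1b had a log2 ratio of 1.24 (1.09 to 1.40), Hist1h1a of 0.84 (0.47 to 1.24) and Hist1h1d of 0.60 (0.43 to 0.78). Hist1h1c was lower in the knockout, at 90.0 and 72.2, a log2 ratio of -0.32 (-0.37 to -0.27). Past 2-fold higher were 2 of the 5 genes and 5.31% of 18986 genes, and past 2-fold lower 0 and 1.88%. The sum was 131 and 163, a log2 ratio of 0.32 (0.28 to 0.36), a smaller difference than that of Hist1h1e or Hist1h1b alone.

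The Hist1h1b difference was also present in cells without the gate genes. Among cells with no Mki67 and no Top2a UMI it stood at 4.67 CPM in 8615 wild-type cells and 13.9 in 8477 knockout cells, a log2 ratio of 1.57 (1.36 to 1.80).

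Levels by cell type were read in the 15 marker-gated types. The sum of the 5 genes was lowest in sinusoidal endothelial cells, the cells that line the liver capillaries, at 56.1 CPM in wild-type and 59.4 in knockout cells. It was highest in B cells, at 307 and 339, and its median over types was 137 and 165. Classical monocytes were the next highest, at 184 and 288. In the order of the wild type, mesenchymal cells, cholangiocytes and vascular endothelial cells came after sinusoidal cells. Kupffer cells, macrophages, neutrophils, other T cells, NK cells, ILC1, CD8 T cells, type 1 conventional dendritic cells (cDC1), patrolling monocytes, classical monocytes and B cells followed upward.

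Most neighbours in that order were not separated. Of the 14 neighbouring pairs, the counting intervals overlapped in 11 for the wild type and in 10 for the knockout. The step from classical monocytes to B cells was beyond the intervals in both libraries. Spearman's rho between the orders of the 2 libraries was 0.91 for the sum over the 15 types, and 0.87, 0.86, 0.81, 0.73 and 0.24 for Hist1h1c, Hist1h1e, Hist1h1d, Hist1h1b and Hist1h1a. These are descriptions, since the types share a library and a depth.

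Hist1h1c held 57.7% to 77.0% of the H1 UMIs of each of the 15 types in wild-type cells. In knockout cells it held 26.8% to 50.8%, and Hist1h1e held more in 5 of 15 types. Hist1h1c was highest in B cells, at 235 CPM (221 to 250) in the wild type and 164 (155 to 172) in the knockout. It was lowest in sinusoidal endothelial cells in the wild type (35.6) and in cholangiocytes in the knockout (24.0). Per kilobase it was the highest of the 5 genes in 15 of 15 wild-type types and 12 of 15 knockout types, where Hist1h1e was highest in the other 3. The counts for Hist1h1e, 5 types by UMIs and 3 per kilobase, differ only by that scaling.

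Hist1h1b outside the cycling gate was highest in classical monocytes, at 21.6 CPM in the wild type (63 UMIs) and 39.8 in the knockout (116 UMIs). It was lowest in wild-type mesenchymal cells at 2.30, which rests on 6 UMIs. Hist1h1e was highest in wild-type B cells (51.5) and in knockout classical monocytes (142), and Hist1h1d in B cells of both libraries (11.7 and 22.3). Hist1h1a was listed at 0 UMIs in 4 wild-type types, including CD8 T cells, where the interval reached 2.32 CPM. The order of Hist1h1a over types cannot be read.

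**Figure D2:**
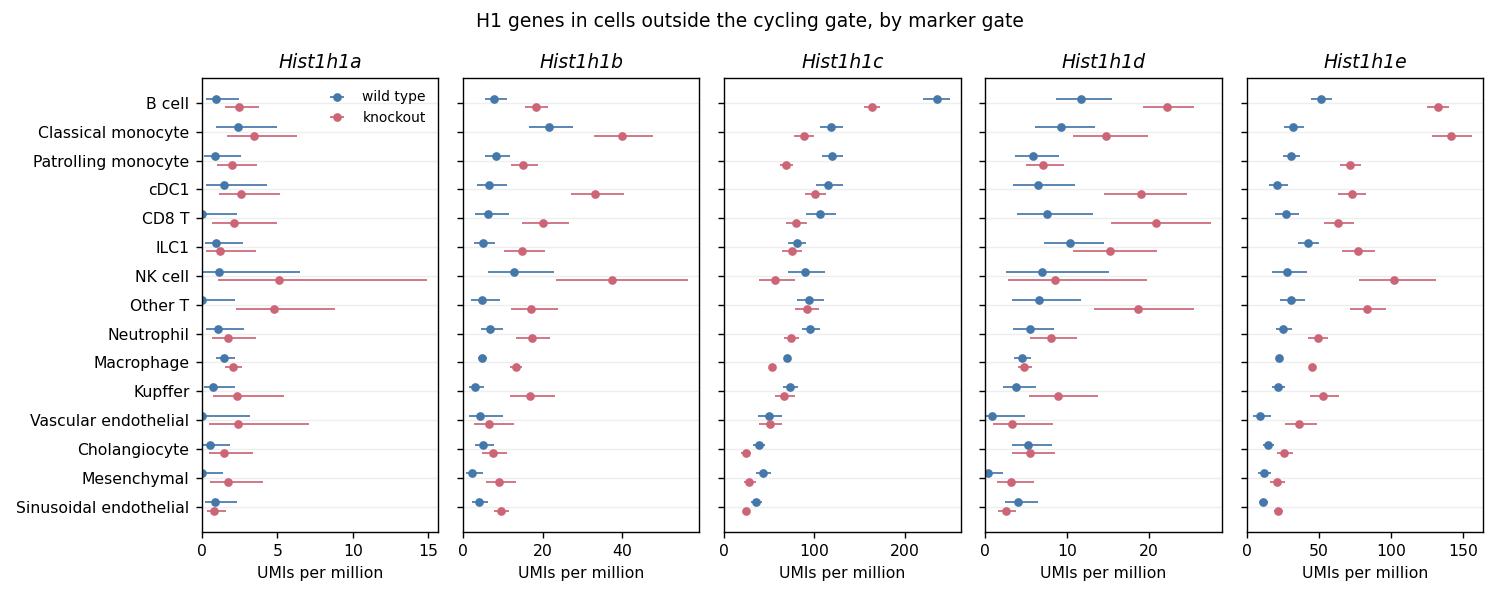
Level of each H1 gene in CPM in 15 marker-gated types outside the cycling gate, ordered by the sum in the wild type, with 95% counting intervals; blue is wild type and red knockout. Hist1h1c peaks in B cells at 235 and 164, and Hist1h1e lies to the right in the knockout in all 15 types.

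Compared between genotypes type by type, Hist1h1e was higher in the knockout in 15 of 15 types, and all 15 intervals lay above 0. It was past 2-fold in 10 of them, with a median log2 ratio of 1.21. The ratio was smallest in mesenchymal cells, at 11.9 and 20.9 CPM (0.79, 0.17 to 1.49). It was largest in classical monocytes, at 32.3 (94 UMIs) and 142 (413 UMIs) CPM (2.12, 1.81 to 2.47). Over the 15 types, 5.3% of 163046 gene and type pairs were past 2-fold higher in the knockout and 2.02% past 2-fold lower. The first share ranged from 3.72% to 7.64% between types. The shares of all genes with the same direction in every type, or with intervals clear of 0, were not counted. Counts of types and intervals, here and below, are therefore a description.

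Hist1h1b was higher in 15 of 15 types and past 2-fold in 11, with 13 intervals above 0 and a median log2 ratio of 1.42. The largest was in Kupffer cells, the resident liver macrophages, at 3.01 (12 UMIs) and 16.8 (36 UMIs) CPM (2.40, 1.50 to 3.56). The next was in cDC1, at 6.44 and 33.2 (2.27, 1.53 to 3.32). The smallest was in vascular endothelial cells (0.48, -1.22 to 2.53), where the libraries had 5 and 8 UMIs. Hist1h1d was higher in 14 types, with only 6 intervals above 0, and the B cell value was 11.7 and 22.3 (0.90, 0.47 to 1.41). Hist1h1a was higher in 14 types, but 14 of its 15 intervals included 0.

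Hist1h1c was lower in the knockout in 14 of 15 types, with 10 intervals below 0 and none past 2-fold. Its median log2 ratio was -0.41. The largest difference was in patrolling monocytes, at 120 (108 to 132) and 69.0 (62.2 to 76.4) CPM, a log2 ratio of -0.79 (-1.001 to -0.59). In B cells it was -0.52 (-0.64 to -0.40) and in macrophages -0.41 (-0.52 to -0.29). Vascular endothelial cells, at 0.02 (-0.52 to 0.56), were the exception. The median over types stayed below 0 in all 8 alternative settings, from -0.50 to -0.21. A lower level over all cells outside the gate was not particular to Hist1h1c (-0.32). There the 8 replacement histone genes described below were all lower in the knockout, with a median of -0.31. Of 12 chaperones and cofactors of H1, 7 were lower and 5 higher. Fewer members of a type in some state and less RNA per cell cannot be told apart in such sums.

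**Figure D3:**
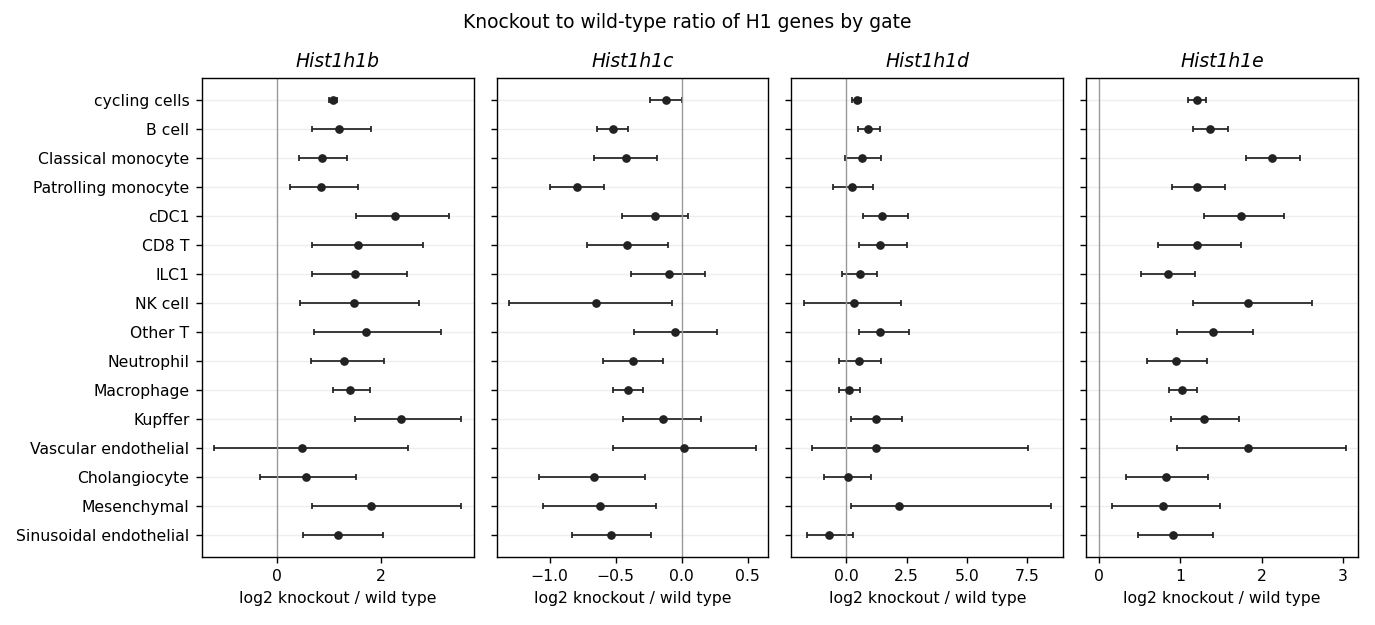
Log2 ratio of knockout to wild-type level, with 95% counting intervals, for Hist1h1b, Hist1h1c, Hist1h1d and Hist1h1e in cycling cells and in 15 types outside the gate; the vertical line is no difference, and each panel has its own axis range. All 15 Hist1h1e intervals lie above 0, and 14 of the 15 Hist1h1c values lie below it.

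The 2 genes that differed in opposite directions share sequence. Of the stretches of 91 bases, a usual read length of this chemistry, 59 occur in both Hist1h1c and Hist1h1d, 56 in both Hist1h1c and Hist1h1e and 49 in both Hist1h1d and Hist1h1e. Hist1h1a and Hist1h1b shared none with any of the 5. Reads from the shared stretches cannot be given to 1 gene, which makes levels of Hist1h1c, Hist1h1d and Hist1h1e less certain. Sequence shared with genes other than these 5 was not searched. Levels of Hist1h1a and Hist1h1b have another limit, since their GENCODE models end 48 and 0 bases after the stop codon. Reads past those ends would not be counted for them. Hist1h1e also overlaps the core histone gene Hist1h2be by 496 bases on the same strand. Hist1h2be stood at 42.2 and 58.4 CPM in wild-type and knockout cycling cells, a log2 ratio of 0.46. The part of either overlap in the ratios was not tested.

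Within the cycling gate, cells were split by whether their S-phase or G2/M genes were the higher. Each level was first taken relative to its mean over the cycling cells of the same library, so the cut was set within each library. In the wild type Hist1h1b stood at 244 CPM in S and 251 in G2/M (log2 S over G2/M -0.04, -0.19 to 0.11). That ratio ran from -0.33 to 0.72 over 10 alternative settings, with 0.27 under a cycling gate of 3 UMIs and 0.60 with the middle cells by phase left out. In the knockout it was higher in S, at 587 and 456 (0.36, 0.29 to 0.44). Hist1h1a was at 17.6 and 22.7 in the wild type (-0.36, -0.90 to 0.17) and at 56.7 and 32.4 in the knockout (0.80, 0.54 to 1.08).

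Hist1h1c was lower in S than in G2/M in both libraries, at 97.0 and 202 in the wild type (-1.06, -1.26 to -0.86) and 100.5 and 162 in the knockout (-0.69, -0.84 to -0.54). Hist1h1d stood at -1.01 in wild-type and -0.29 in knockout cells on the same log2 scale, and Hist1h1e at -0.66 and -0.31. In the wild type 0 and 2 of the 5 genes were past 2-fold higher and lower in S, against 12.9% and 4.22% of 11951 genes. In the knockout 0 and 0 were, against 6.89% and 2.67% of 13600.

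This split depended on the cycling gate. With 1 UMI of each gate gene the S over G2/M ratio in the knockout was below 0 for Hist1h1a (-0.03) and Hist1h1b (-0.46). With that gate applied after thinning it was above 0 for Hist1h1c (0.33), Hist1h1d (0.25) and Hist1h1e (0.33) in the knockout. The gate rests on Mki67 and Top2a, which are known to peak in G2/M, and the part of that choice was not tested further. In the wild type Hist1h1c (-1.27 to -0.53) and Hist1h1d (-1.27 to -0.45) were below 0 in 10 of 10 alternatives. The ratio changed sign there in 3 of 10 for Hist1h1a, 6 of 10 for Hist1h1b and 2 of 10 for Hist1h1e. The wild-type sum (-0.52) was 0.13 with the gate of 1 UMI after thinning. No direction between phases is therefore read for the knockout, or in the wild type for Hist1h1a, Hist1h1b, Hist1h1e and the sum.

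Between genotypes, Hist1h1b and Hist1h1e were higher in the knockout in both phases, as cut within each library. The phases of the 2 libraries need not match exactly. The log2 ratio for Hist1h1b was 1.26 (1.16 to 1.37) in S and 0.86 (0.74 to 0.98) in G2/M. For Hist1h1e it was 1.36 (1.20 to 1.53) and 1.01 (0.86 to 1.17). When cycling cells were put in order from G2/M to S in 5 bins, Hist1h1b in the wild type stayed between 209 and 317 CPM. In the knockout it went from 336 in the bin nearest G2/M to 681 in the bin nearest S, so its lowest bin there (309 to 365) was above the highest of the wild type (280.2 to 357) by less than the counting intervals.

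**Figure D4:**
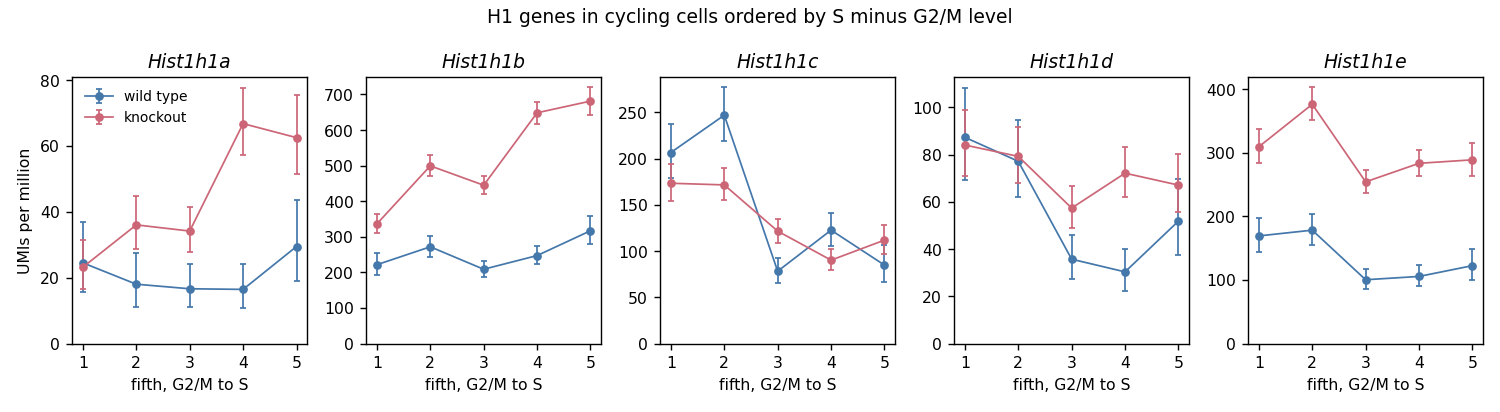
Level of each H1 gene in CPM in 5 bins of cycling cells, ordered from highest G2/M relative to S (bin 1) to highest S relative to G2/M (bin 5), with 95% counting intervals. Each panel has its own axis, which starts at 0. Hist1h1b and Hist1h1e are higher in the knockout (red) than in the wild type (blue) in every bin, and Hist1h1c is not.

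Hist1h1b UMIs were spread over many cycling cells, and Hist1h1a UMIs over fewer. A Hist1h1a UMI was found in 80 of 272 wild-type cycling cells (29.4%), and 5 cells held 17.2% of its UMIs there. A Hist1h1b UMI was found in 211 of 272 wild-type cycling cells (77.6%) and 343 of 433 knockout cycling cells (79.2%). With each cell thinned to 1000 UMIs, which left out 0 cycling cells, the shares were 18.8% and 37.4%. Outside the gate they were 0.732% and 1.76% after thinning, with 917 wild-type and 598 knockout cells too shallow to enter. No cell type known to lack H1 was at hand as a background for such shares. The 5 cells richest in Hist1h1b held 8.99% and 9.06% of its UMIs in cycling cells, and 1 knockout cell held 167. Leaving them out gave a Hist1h1b log2 ratio of 1.08.

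Of the other H1 genes tested in cycling cells, 0 of 2 were past 2-fold between genotypes there. H1f0 stood at 97.4 CPM in wild-type and 76.2 in knockout cycling cells, a log2 ratio of -0.36 (-0.51 to -0.20). Outside the gate it stood at 47.8 and 37.4, and it was lower in the knockout in 15 of 15 types, with 10 intervals below 0. It was past 2-fold lower in 3 of the 15, on few UMIs. These were NK cells (27 and 5 UMIs, -1.68, -3.62 to -0.49), other T cells (60 and 32 UMIs, -1.21, -1.89 to -0.59) and CD8 T cells (31 and 21 UMIs, -1.10, -1.99 to -0.27). All 3 intervals also took in differences under 2-fold. H1fx had 12.2 and 12.6 in cycling cells (0.04, -0.37 to 0.47). Hist1h1t, H1foo, H1fnt and Hils1, which serve germ cells, had 0 to 2 UMIs in the cycling cells of a library and were not tested there.

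The core histone genes, which encode the H2A, H2B, H3 and H4 of the nucleosome itself and share the stem-loop and S-phase control, had no common direction. Of 61 listed genes 53 had at least 20 UMIs in cycling cells, and 2 were past 2-fold higher and 2 past 2-fold lower in the knockout. Their median log2 ratio was 0.05. The range ran from -2.01 for Hist1h2ap (340 and 84.5 CPM) to 1.80 for Hist1h3c (28.4 and 99.5). The other ends were Hist1h3h (-1.28) and Hist1h2an (25.2 and 80.0, 1.66). The genes with the highest levels were Hist1h2bc (394 and 219) and Hist1h2ae (338 and 295). Many of these genes are near-identical copies, so their single values are uncertain.

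Replacement histones, which are also made outside S phase, had 0 of 8 genes past 2-fold and a median of -0.27. H3f3b, an H3.3 gene, stood at 5625 and 3640.0 CPM (-0.63), H2afz at 2031 and 1737 (-0.23), H2afv at -0.18, H2afy at 0.15 and H2afy2 at -0.95. Of the 11 genes that process histone RNA, 0 were past 2-fold and the median was -0.06. Slbp, the protein that binds the stem-loop, stood at 207 and 149 (-0.47), and Lsm10, of the U7 particle that cuts the RNA, at 21.8 and 17.5 (-0.31). Npat, which activates histone gene transcription, stood at 35.1 and 55.5 (0.66), Zfp473 at 0.77 and Casp8ap2 at 67.5 and 78.0 (0.21).

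Among 12 chaperones and cofactors of H1, 0 were past 2-fold and the median was -0.16. Ptma, a small acidic H1 chaperone, stood at 4598 and 4153, Hmgb2 at 1803 and 1467, and Hmgn2, which competes with H1 on the nucleosome, at 316 and 195 (-0.70). Cbx3, a heterochromatin protein, stood at -0.62, Cbx1 at 0.18 and Parp1 at 0.34. Of 27 S-phase genes 0 were past 2-fold and the median was -0.28, from Rrm2, a ribonucleotide reductase subunit (168 and 85.3, -0.98), and Chaf1b (-0.60) to Cdc6 (0.27) and Ccne2 (0.35). Pcna, the replication clamp, stood at 175 and 166. Of 30 G2/M genes 0 were past 2-fold and the median was 0.11, from Cks2 (298 and 242, -0.30) and Cdca3 (-0.30) to Cenpe (0.67) and Ckap2 (0.77), with Ube2c at 277 and 237. The median log2 ratio of the 5 H1 genes, 1.08, stood above that of each of these lists. Members and lists were chosen with earlier results of these data known, so nothing is read from that rank.

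**Figure D5:**
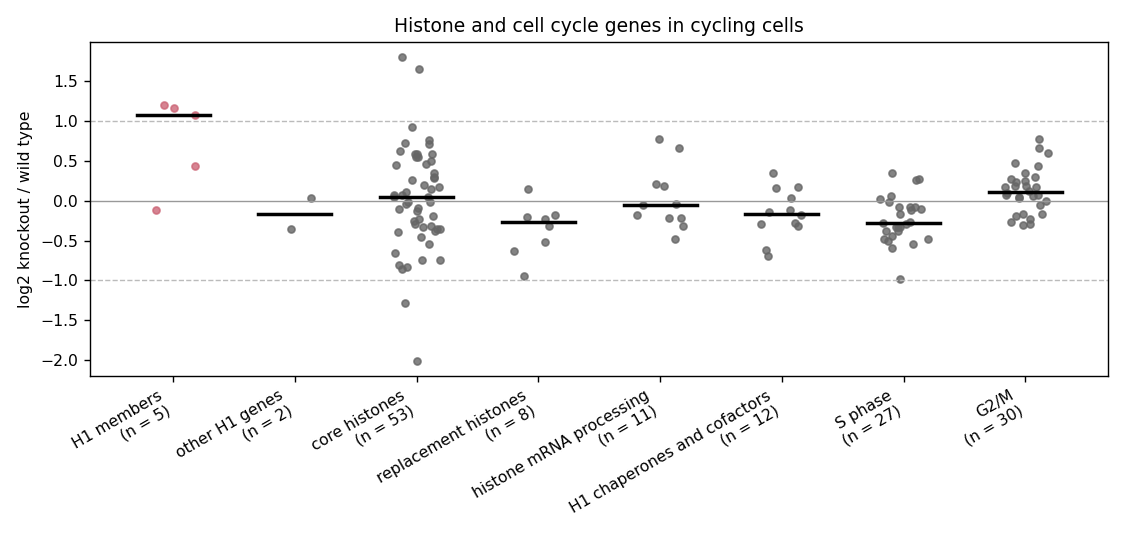
Log2 ratio of knockout to wild-type level in cycling cells for every tested gene of 8 lists, with a black bar at each list's median and dashed lines at 2-fold; points are spread sideways for visibility. The H1 genes have a median of 1.08, while the medians of the other lists lie between -0.28 and 0.11.

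Over 39 populations (gated types and cycling cells of both libraries, at least 50 cells each), Pearson's r of log2(CPM + 1) between members was 0.86 for Hist1h1a and Hist1h1b, 0.83 for Hist1h1d and Hist1h1e, 0.82 for Hist1h1b and Hist1h1e, and 0.80 for Hist1h1b and Hist1h1d. It was 0.69 for Hist1h1a and Hist1h1e, 0.68 for Hist1h1a and Hist1h1d, 0.65 for Hist1h1c and Hist1h1d, 0.55 for Hist1h1c and Hist1h1e, 0.40 for Hist1h1b and Hist1h1c, and 0.26 for Hist1h1a and Hist1h1c. Among 14258 genes, histones left out, those most like Hist1h1b were Cenpe (0.81), a mitotic kinesin, Melk (0.80) and Prc1 (0.79). Those most like Hist1h1a were Depdc1a (0.78), Cenpf (0.78) and Cenpe (0.77).

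The genes most like Hist1h1c were Map4k1 (0.80), a kinase of blood cells, Ighm (0.76), the immunoglobulin M heavy chain, and Pik3cg (0.74). Mphosph10 (0.80), Anp32e (0.74) and Dnajc9 (0.70) were most like Hist1h1d, and Mphosph10 (0.73), Cerkl (0.72) and Hspa4l (0.72) most like Hist1h1e. For the sum they were Mphosph10 (0.79), Map4k1 (0.76), Anp32e (0.73), Dera (0.71) and Sec11c (0.71). These correlations describe 39 points that share 2 libraries and their depths, and they carry no p-value.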

How the data were processed

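The authors deposited raw UMI counts per gene and barcode for 2 libraries of Chromium 3′ v3 chemistry, per the labels' protocols. Per the file headers the counts were made with Cell Ranger 7.0.1, while the submitters' processing notes name Cell Ranger 3.1.0, Seurat and mm10. The annotation, the use of intronic reads and earlier cell filters are not given in the sources used here. This chemistry primes on poly(A), so histone RNA that ends at the stem-loop is captured poorly, and levels here are of the captured RNA.

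Barcodes under 200 genes or over 20% mitochondrial UMIs were removed. The highest Scrublet scores (scanpy 1.11.5) were removed as doublets at 0.8% per 1000 cells. A cell took a type when at least 3 and at least 50% of its markers had a UMI and no other type had a higher share; hepatocyte and erythroid markers also had to make up at least 5% of UMIs. UMIs were summed per population and library and given as CPM. Log2 ratios have 1 count added to each sum, with exact conditional intervals from scipy 1.17.1, and levels have exact Poisson intervals. Genes with at least 20 UMIs over the 2 groups were tested against a 2-fold limit, which is a size limit and no test. The interval step was tested on simulated counts. Of the feature identifiers 99.85% occur in GENCODE M21.

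The members, gene lists and markers were chosen with earlier results of these data known. All 5 members are named, and in each list the 2 highest and 2 lowest ratios in cycling cells and the 2 highest levels. The genes most like a member are the 3 (for the sum, the 5) with the highest r among genes with at least 200 UMIs. Alternatives changed the cell filters, doublet removal, cycling gate, depth, denominator, scaling, type gates, phase split and the richest cells.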

Additional observations from a re-analysis of the deposited data

How the results depend on the processing

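Directions between genotypes were stable for 4 of the 5 genes and the phase split was not. The knockout to wild-type log2 ratio of the sum in cycling cells was 0.85, and it was 1.01 with cells thinned to 1000 UMIs, 0.75 with a cycling gate of 1 UMI, 1.12 with that gate after thinning, 0.73 scaled by the median of ratios, 0.76 with no doublets removed and 0.78 with histone, mitochondrial, ribosomal protein and haemoglobin genes left out of the total. It was positive in 11 of 11. The level of the sum in cycling cells (592 in wild type and 1068 in knockout) was, in that order of genotypes, 643 and 1305 thinned, 462 and 776 with the gate of 1 UMI, 804 and 1754 with that gate after thinning, 666 and 1189 with a gate of 3 UMIs, 684 and 1275 as a mean over cells, 571 and 969 with no doublets removed, 735 and 1265 with the reduced total, and 558 and 1015 without the 5 richest cells. The median over types was 176 and 186 with the reduced total and, in the knockout, 149.9 without the 5 richest cells. The log2 ratio of cycling to other cells for the sum (2.18 and 2.71) was, in the wild type, 2.10 thinned, 1.84 and 2.31 with the gate of 1 UMI before and after thinning, 2.33 with a gate of 3, 2.08 as a mean over cells and 2.11 without the richest cells. In the knockout it was 2.67 against cells with no Mki67 and no Top2a UMI, 2.24 and 2.89 with the gate of 1 UMI before and after thinning, 2.85 with a gate of 3, 2.58 with no doublets removed, 2.75 with the reduced total and 2.66 without the richest cells. The S over G2/M log2 ratio of the sum (-0.52 and 0.02) was, in the wild type, -0.11 thinned, -0.73 and 0.13 with the gate of 1 UMI before and after thinning, -0.27 with a gate of 3, -0.17 as a mean over cells and -0.19 without the middle cells by phase. In the knockout it was 0.14, -0.73, 0.62, 0.19, 0.18 and 0.46 under the same settings, -0.19 with no doublets removed and -0.0503 without the richest cells. For single genes the sign of that ratio turned in the knockout for Hist1h1a (-0.0264) and Hist1h1b (-0.46) with the gate of 1 UMI, and for Hist1h1c (0.33), Hist1h1d (0.25) and Hist1h1e (0.33) with that gate after thinning. It turned in the wild type for Hist1h1e (0.0331 thinned and 0.17 with the gate after thinning), in 3 of 10 alternatives for Hist1h1a (-0.36, up to 0.28) and in 6 of 10 for Hist1h1b (-0.04, up to 0.72). The cause was not tested. Over single genes, 166 of 255 alternative values stayed within the counting interval of the main value. In all 17 changed sign, 16 of them of the phase ratio and 1 of the Hist1h1c ratio between genotypes. Over 8 alternatives the median ratio over types ran from 0.24 to 2.20 for Hist1h1a (1.12), 1.19 to 1.70 for Hist1h1b (1.42), -0.50 to -0.21 for Hist1h1c (-0.41), 0.42 to 0.90 for Hist1h1d (0.65) and 1.06 to 1.30 for Hist1h1e (1.21). The comparison with cells lacking both gate genes and the weighting by lineage were chosen after seeing the data. No paired analysis was possible because each genotype has 1 library. Depth limits Hist1h1a outside the cycling gate, with 80 and 197 UMIs in all.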
